A study of Homo sapiens with 3 samples.

Results

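The interferon-stimulated genes *ISG15*, *IFI6*, *IFI27*, *IFIT1*, *IFIT2*, *IFIT3*, *MX1*, *OAS1* and *ETV7*, standard markers of an interferon response, were followed in HepG2 cells, a human hepatocellular carcinoma line, after 30 h with etoposide. They were selected by gene name, with every probe that carried the name, and comprised 10 probes of the 34127 on the array and 9 genes of 27274. Cells with 0 μM etoposide, which the labels also call untreated, were compared with cells at 10 μM (the low dose) and 100 μM (the high dose), and each condition was measured once, on 1 array. The study names DMSO as the control of its array fold changes, so untreated here means without etoposide. Etoposide blocks topoisomerase II and causes DNA double-strand breaks. The study set a dose at which it examined senescence against a dose at which it examined apoptosis, and the question here is how the interferon-stimulated genes stood at each. With 1 array per condition no difference has a replicate check, so no p-value is given and fold changes describe these 3 arrays only.

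Interferons are secreted proteins that cells release when they sense viral or misplaced nucleic acid. Their receptors activate Janus kinases, which phosphorylate STAT proteins, and these join IRF9 in a complex, ISGF3, that binds a short DNA element called the interferon-stimulated response element (ISRE) in front of its target genes. The products include a ubiquitin-like modifier (*ISG15*), small membrane proteins (*IFI6*, *IFI27*), RNA-binding proteins (the *IFIT* family), a dynamin-like GTPase (*MX1*), an enzyme that responds to double-stranded RNA (*OAS1*) and an ETS-family repressor (*ETV7*). DNA damage is also known to induce such genes in some cell types.

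The promoters were read first for the letters of the ISRE. RefSeq promoter entries of 300 bases, from 250 bases before to 50 bases after a start on GRCh38.p14, were found for 7 of the 9 genes, in 11 entries, while *IFIT2* and *ETV7* had none. The letters GAAANNGAAA, searched on both strands, occurred in 9 of the 11 entries and in 6 of the 7 genes, compared with 3.57% of all 35116 promoter entries (1255). *OAS1* was the gene without them. The letters TTCNNNGAA, the core of the gamma-activated site (GAS) of interferon gamma targets, occurred in 4 of the 11 entries, those of *OAS1*, *IFI27* and *MX1*, compared with 7.66% of all entries (2689). A match is a run of letters and was not tested for binding. The stretches below show, for the genes with a match, how the ISRE letters (in capitals) repeat or overlap, each with 10 bases on both sides and written 5′ to 3′ on the strand of the gene.
ISG15, chr1:1013374-1013409, plus strand: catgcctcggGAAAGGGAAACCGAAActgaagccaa
IFI6, chr1:27672266-27672358, minus strand: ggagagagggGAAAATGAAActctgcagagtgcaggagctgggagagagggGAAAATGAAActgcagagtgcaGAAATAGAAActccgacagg
IFI27, chr14:94110618-94110660, plus strand: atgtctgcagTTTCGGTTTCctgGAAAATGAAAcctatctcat
IFIT1, chr10:89392497-89392539, plus strand: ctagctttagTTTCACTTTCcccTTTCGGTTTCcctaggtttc
IFIT3, chr10:89332425-89332497, plus strand: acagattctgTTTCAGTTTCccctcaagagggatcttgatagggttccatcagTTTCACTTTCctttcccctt
MX1, chr21:41420559-41420588, plus strand: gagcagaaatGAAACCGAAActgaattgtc
In *ISG15* 2 matches share 4 bases, whereas *IFI6* has 3 separate ones. The matches of *IFIT1* and *IFIT3* lie on the opposite strand to the gene, and *IFI27* has 1 match on each strand with GAS letters between them that overlap both. The printed window of *MX1* lies just after its start, and those of the other 5 genes lie before it. A second entry of *MX1*, with 1 match before its start on the opposite strand, and a second entry of *IFIT3*, with 2 matches, are not printed.

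**Figure D1:**
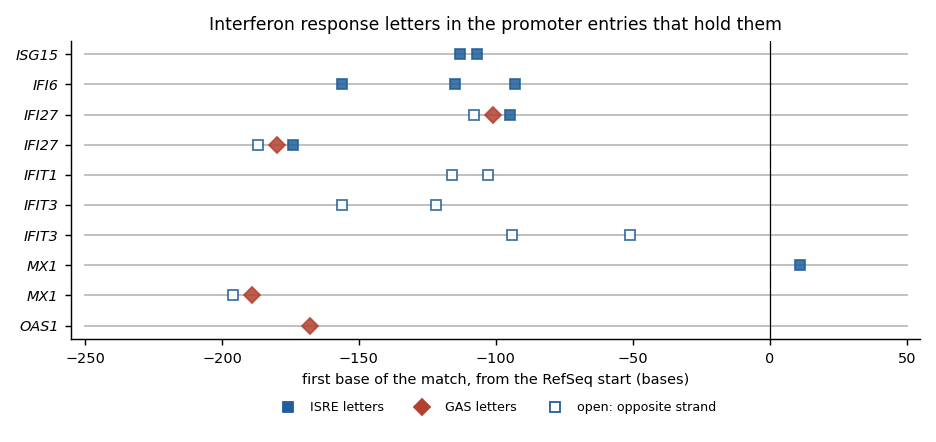
Position of each match of the ISRE letters (squares) and the GAS letters (diamonds) in the RefSeq promoter entries that hold any, with the first base of the match in bases from the start on the x axis and 1 row per entry. Filled squares lie on the strand of the gene and open squares on the opposite strand. *IFI6* carries 3 matches between -156 and -93, *IFIT1* and *IFIT3* carry theirs on the opposite strand, and *OAS1* shows the GAS letters only.

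All 3 arrays lay on 1 slide and held 44495 spots each, of which 19836 to 20153 probes were well above background by the scanner software, and no spot was saturated. Signals are background-subtracted intensities in arbitrary units and cannot be compared between probes. Ratios were taken after each array was scaled to its 75th percentile, a signal of 514, 536 and 432 at 0, 10 and 100 μM, which raised the high dose by 0.25 on the log2 scale relative to 0 μM. The median log2 ratio of all measured genes was then -0.03 at 10 over 0 μM (15449 genes), 0.09 at 100 over 0 μM (15466 genes) and -0.10 at 10 over 100 μM (15435 genes). Errors are spot-to-spot SDs, estimated from the repeated probes of the same array that were nearest in signal, because none of these 10 probes was spotted more than once. They do not cover the spread between cultures. The hepatocyte markers of the list, among them *ALB*, *APOB* and *TTR*, were well above background on every array, 8 of 8. Their median log2 ratio was -0.01 at 10 over 0 μM and 0.49 at 100 over 0 μM, where 6 of 8 were above 0 and *TTR* was at 1.11, and the part of that shift in the results below was not tested. The damage response was visible in *CDKN1A*, the p53 target that arrests the cell cycle, with log2 ratios of 2.99 and 2.82 at the low and high dose, in *MDM2* with 2.81 and 1.67, and in *PCNA* with 2.06 and 0.45.

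**Figure D2:**
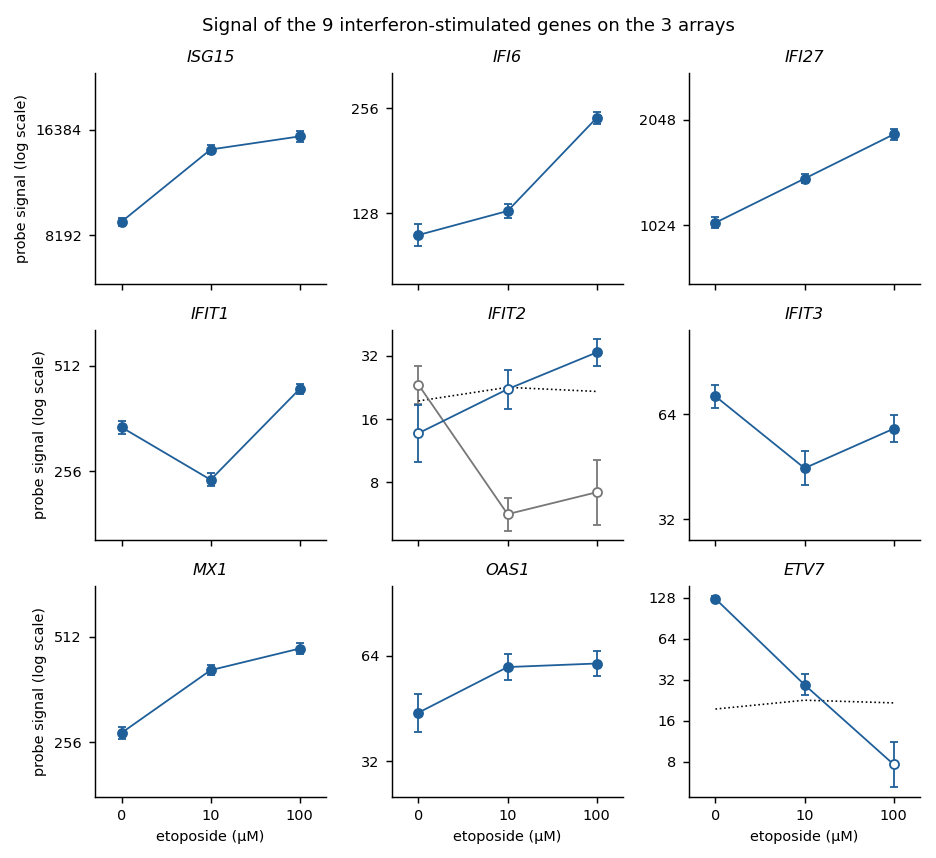
Signal of each probe (y axis, log scale, arbitrary units, not scaled between arrays) against etoposide dose (x axis, μM), 1 array per dose, with bars of 1 spot-to-spot SD. Filled points are well above background, open points are not, the dotted lines in the *IFIT2* and *ETV7* panels are the lowest signals well above background, and grey marks the second probe of *IFIT2*. Of the genes well above background throughout, 5 step up with dose, *IFIT1* and *IFIT3* are lowest at 10 μM, and *ETV7* drops from 126 to below background.

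At the high dose, 5 of the 9 genes stood more than 2-fold above 0 μM and 1 stood more than 2-fold below. Across the array 6.84% of the 16779 genes compared were more than 2-fold higher and 3.71% more than 2-fold lower. The higher ones were *ISG15*, *IFI6*, *IFI27*, *MX1* and *IFIT2*, the last as a lower bound, and the lower one was *ETV7*. The median log2 ratio of the 7 genes measured on both arrays was 1.05, and 1.02 with the 2 bounds, beside 0.09 for all measured genes. This count depended on the scaling. Without scaling 1 gene was higher and 1 lower, and over the whole array the split changed from 1148 higher and 622 lower to 637 higher and 1076 lower. Under all 7 scalings tried, the same 6 of the 7 measured genes had a ratio above 0. With the scaling used here, 57.4% of all measured genes did.

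At the low dose none of the 8 genes that could be compared was more than 2-fold above 0 μM, and 1 was more than 2-fold below, against 3.38% higher and 1.61% lower among 16664 genes. The gene below was *ETV7*. The median of the 8 was 0.27, beside -0.03 for all measured genes, with 5 of the 8 above 0 and 3 below. Among all measured genes 45.6% were above 0. Between the doses, at 10 over 100 μM, none of the 9 genes compared was more than 2-fold higher and 2 were more than 2-fold lower, *IFI6* and *IFIT1*. The shares over 16688 genes were 3.66% higher and 3.97% lower. All 7 genes measured at both doses had the lower scaled value at 10 μM, with a median of -0.69, beside -0.10 for all measured genes. Most genes on the array went the same way, with 40.4% of all measured genes above 0. Without scaling the log2 ratios of the 7 ran from -0.88 (*IFI6*) to -0.03 (*OAS1*). Each of these comparisons shares an array with another, so the 3 sets of ratios are not separate evidence.

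Of the 7 genes well above background on all 3 arrays, 5 had scaled values in the order of the doses (*ISG15*, *IFI6*, *IFI27*, *MX1* and *OAS1*) and 2 were lowest at 10 μM (*IFIT1* and *IFIT3*). Among all 15178 such genes, 24.6% followed the order of the doses and 34.8% were lowest at 10 μM.

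*ISG15* encodes the ubiquitin-like protein that is conjugated to other proteins and also secreted. Its probe, on hg18 at chr1:939430-939489, gave signals of 8950 at 0 μM, 14400 at 10 μM and 15700 at 100 μM. The untreated array had the lowest signal, and the treated ones were closer to each other before scaling than after it. The scaled log2 ratio was 0.63 ± 0.06 (spot SD) at 10 over 0 μM, a 1.55-fold difference, and 1.06 ± 0.06 at 100 over 0 μM, a 2.09-fold difference. Without scaling the latter was 1.76-fold. Between the doses the scaled value was 1.35-fold higher at 100 μM, a gap of 6.80 spot SDs, and the unscaled log2 ratio at 10 over 100 μM was -0.12. At the low dose *ISG15* had the highest ratio of the 9 genes, and 1043 of the 15449 measured genes were higher (6.75%).

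*IFI6* and *IFI27* encode small hydrophobic proteins of one family, found in mitochondrial and other membranes, and *IFI6* is known to restrain apoptosis. The *IFI6* probe (hg18 chr1:27865424-27865483) gave 111, 130 and 240 at 0, 10 and 100 μM. Its low-dose signal lay close to the untreated one, 1.41 spot SDs away after scaling, and the high dose stood apart from both. The log2 ratio was 0.17 ± 0.12 at 10 over 0 μM and 1.36 ± 0.12 at 100 over 0 μM, the highest measured ratio among the 9 genes, with 304 of 15466 genes above it (1.97%). This was a 2.57-fold difference, 2.16-fold without scaling, and more than 2-fold under each of the 7 scalings (log2 ratio 1.07 to 1.43). At the high dose *IFI6* was also 2.28-fold above the low dose.

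The *IFI27* probe (hg18 chr14:93652720-93652779) gave 1040, 1390 and 1860 at the 3 doses. Each dose was higher than the one before, with log2 ratios of 0.36 ± 0.07 at 10 over 0 μM, 1.09 ± 0.07 at 100 over 0 μM and -0.73 ± 0.06 at 10 over 100 μM. At 100 over 0 μM this is a 2.13-fold difference, 1.80-fold without scaling, and it was past 2-fold under 4 of the 7 scalings, as it was for *ISG15* and *MX1*.

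*MX1* encodes a GTPase that blocks the replication of RNA viruses. Its probe (hg18 chr21:41752884-41752943) gave 272 at 0 μM, 411 at 10 μM and 474 at 100 μM. The order was that of *ISG15*. The log2 ratios were 0.54 ± 0.08 and 1.05 ± 0.08, or 1.45-fold and 2.07-fold, and the second was 1.74-fold without scaling. The scaled log2 ratio at 10 over 100 μM was -0.52 ± 0.07, and -0.20 without scaling.

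*OAS1* encodes an enzyme that, on binding double-stranded RNA, makes oligoadenylates, which serve as an antiviral signal. Its probe (hg18 chr12:111838844-111838903) was dim, with 44.0, 59.4 and 60.8 at the 3 doses. Both treated arrays were above the untreated one, and their signals were nearly the same. The log2 ratio was 0.37 ± 0.21 at the low dose, 1.74 spot SDs from 0, and 0.72 ± 0.21 at the high dose, 3.37 spot SDs from 0 and a 1.64-fold difference. After scaling the high dose lay 2.03 spot SDs above the low one, a gap that came from the scaling, since the unscaled log2 ratio at 10 over 100 μM was -0.03.

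The *IFIT* genes encode proteins that bind viral RNA and block its translation. In RefSeq order *IFIT2*, *IFIT3*, *IFIT1B*, *IFIT1* and *IFIT5* follow each other on chromosome 10. The *IFIT1* probe (hg18 chr10:91153418-91153477) gave 342, 242 and 440 at 0, 10 and 100 μM. The low dose was the lowest of the 3 and the high dose the highest. The log2 ratios were -0.56 ± 0.09 at 10 over 0 μM, or 1.47-fold lower, and 0.61 ± 0.08 at 100 over 0 μM, or 1.53-fold higher. The gap between doses was therefore the wider one, 2.25-fold after scaling, and it was past 2-fold under 4 of the 7 scalings (log2 ratio at 10 over 100 μM from -1.25 to -0.86).

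*IFIT3* had 71.9, 44.8 and 58.1 on the probe at hg18 chr10:91089742-91089801. It was lowest at 10 μM too, 1.68-fold below 0 μM (log2 ratio -0.74 ± 0.20), with 453 of 15449 genes lower still (2.93%). The high dose could not be told from 0 μM, at -0.06 ± 0.17, and under the 7 scalings that ratio ran from -0.35 to 0.01. It was the only measured gene of the 9 with a ratio below 0 at the high dose.

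*IFIT2* was measured by 2 probes whose starts lie 1784 bases apart, and they gave different pictures. The brighter one (hg18 chr10:91058377-91058436) gave 13.7, 22.2 and 33.2 and was well above background at 100 μM only. The other (hg18 chr10:91056593-91056652) gave 23.3, 5.64 and 7.17 and was not well above background on any array. From the brighter probe *IFIT2* was at least 2.03-fold higher at 100 μM than at 0 μM, measured against the lowest signal well above background on the untreated array (19.51). This bound, a log2 ratio of 1.02 with a spot SD of 0.50, was past 2-fold under 3 of the 7 scalings. It is not a strict limit, since the other probe, at 23.3, exceeded 19.51 and was still not well above background. No fold is given for the low dose against 0 μM, since neither signal was well above background.

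*ETV7* encodes a transcription factor of the ETS family that is itself induced by interferon and represses part of the interferon-stimulated set. Its probe, which reads as part of the ETS domain's coding sequence, lies on hg18 at chr6:36444715-36444774 (minus strand) and is printed because this gene had the largest difference of the 9.
ETV7 probe: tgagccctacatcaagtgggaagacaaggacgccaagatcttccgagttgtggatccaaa
The signal was 126 at 0 μM, 29.4 at 10 μM and 7.64 at 100 μM, where it was no longer well above background (the lowest such signal there was 21.65). The 3 arrays were thus in the reverse order of the doses. At the low dose *ETV7* was 4.48-fold lower, with a log2 ratio of -2.16 ± 0.27, and none of the 15449 measured genes had a lower one. At 100 μM the difference was at least 4.90-fold. Both differences were past 2-fold under all 7 scalings (-2.19 to -2.08 at the low dose). The low-dose value rests on a signal near background, and with a normexp background correction that adds an offset of 50 it was -1.06, with 48 genes lower.

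**Figure D3:**
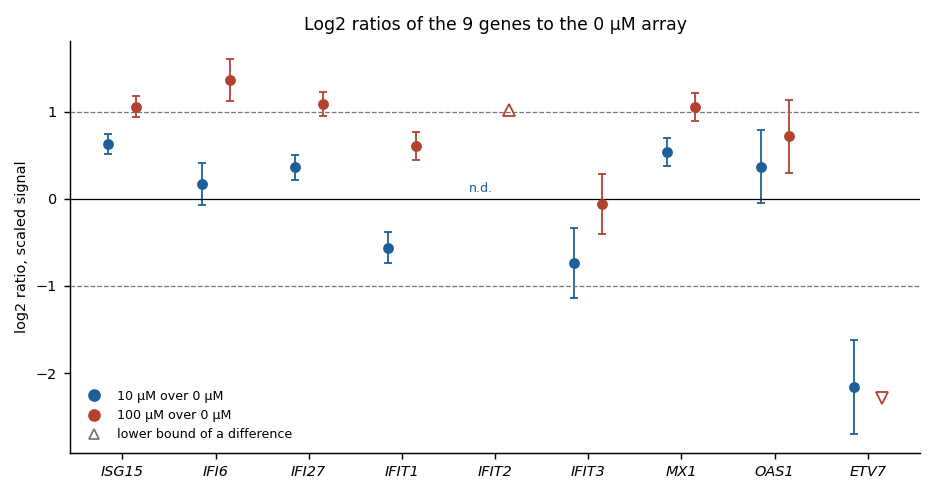
Scaled log2 ratio to the 0 μM array (y axis) for each gene at 10 μM (blue) and 100 μM (red), with bars of 2 spot-to-spot SDs, open triangles for bounds, n.d. where both signals were below background, and dashed lines at 2-fold. *IFI6* reaches 1.36 at the high dose, *IFIT1* lies on opposite sides of 0 at the 2 doses, and *ETV7* lies at -2.16 and at or below -2.29.

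**Figure D4:**
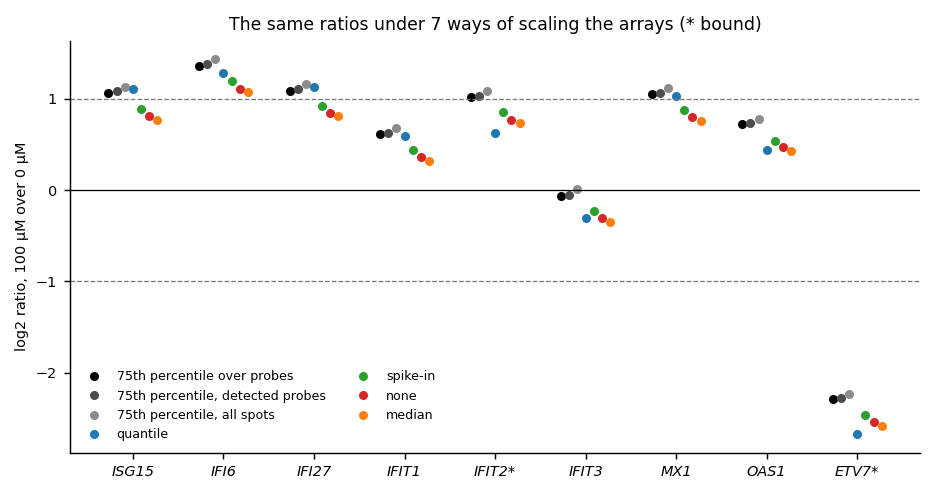
Log2 ratio at 100 over 0 μM (y axis) of each gene under 7 ways of scaling the arrays (colours), with asterisks for bounds and dashed lines at 2-fold. *IFI6* is above the upper line throughout, *ISG15*, *IFI27* and *MX1* are above it under 4 scalings and below it under 3, and *ETV7* is below the lower line throughout.

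The genes with the patterns nearest to 2 of the members were sought among 12046 genes with a RefSeq mRNA that were well above background on all 3 arrays, by the distance between the ratios at 10 and 100 μM. Nearest to *IFI6*, which had the largest difference upward of the 7 genes measured throughout, were *MFGE8*, *PITPNM1* and *ONECUT1* (distances 0.059 to 0.096 on the log2 scale). Nearest to *IFIT3*, which had the largest downward, were *KYNU*, *MTTP* and *EEF2* (0.019 to 0.026). With 3 arrays such likeness is a description.

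The other genes of the interferon system were taken from 10 lists, with 132 of 136 genes on the array and 95 well above background on at least 1 array. At the low dose 4 of the 89 that could be compared were more than 2-fold higher and 1 was more than 2-fold lower, beside 3.38% and 1.61% of all genes compared, and the median of the measured ones was 0.13, beside -0.03. At the high dose 14 of 94 were higher and 1 was lower, beside 6.84% and 3.71%, with a median of 0.32, beside 0.09. As for the 9 genes, the high-dose count depended on the scaling, with 5 higher and 2 lower without it.

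The log2 ratios of the family relatives ranged from -0.78 to 1.42 at 10 over 0 μM and from -0.45 to 2.12 at 100 over 0 μM. *IFI27L2*, the gene next to *IFI27* on chromosome 14, had signals of 113, 315 and 412, a 2.68-fold difference at 10 μM and a 4.34-fold difference at 100 μM. *IFI27L1*, on the other side of *IFI27*, had 943, 1070 and 582 and was within 2-fold at both doses. *OAS3*, which lies beside *OAS1* on chromosome 12, had 83.1, 209 and 103. It was 2.42-fold higher at the low dose, where *OAS1* was 1.29-fold higher, and 1.47-fold higher at the high dose. *OAS2* in the same cluster was 1.72-fold lower at 10 μM on its brightest probe and 1.03-fold higher on another. *MX2*, the neighbour of *MX1*, stayed between 1490 and 1590, and *IFIT5* between 166 and 175. In all, 2 of the 8 relatives compared were past 2-fold at the low dose and 1 of 8 at the high dose, each of them upward, with medians of 0.09 and 0.27.

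Interferon genes themselves were mostly not detected. Of the 17 on the array, 14 were not well above background on any, including *IFNB1*, the interferon that most cell types can make, with signals of 5.23 to 6.35. *IFNL2*, an interferon of epithelial cells, was above background throughout with 44.9, 39.0 and 40.0, but its sequence is nearly the same as that of *IFNL3* and its probe may read both. *IFNA4* and *IFNA21* were above background at 100 μM only, with 38.9 and 37.0, and were at least 2.37-fold and 2.25-fold higher there than at 0 μM. The interferon alpha genes are near-identical copies, so these 2 probes may not tell them apart. The 4 chemokine genes that interferon induces, *CXCL9*, *CXCL10*, *CXCL11* and *CCL5*, were not well above background on any array.

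The receptors and JAK-STAT factors were well above background on at least 1 array, 12 of 12, and *IFNLR1*, a receptor chain for lambda interferons, at 10 μM only. *IRF9* and *STAT2*, had their ratios in the order of the doses. *IRF9*, the DNA-binding part of ISGF3, had signals of 311, 391 and 543 and was 1.21-fold and 2.08-fold above 0 μM, the latter 1.75-fold without scaling. *STAT2* had 4620, 5900 and 7200, or 1.22-fold and 1.85-fold. *IRF9* was the 1 gene of the 11 compared at the high dose that was past 2-fold, and none was at the low dose. Of all genes compared, 6.84% were higher and 3.71% lower at the high dose, and 3.38% and 1.61% at the low dose. The medians were 0.09 and 0.36.

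Among the interferon regulatory factors, which switch on interferon genes, *IRF7* was at least 2.16-fold higher at 100 μM and 4 of the 5 compared were within 2-fold, while at 10 μM the 3 compared were within 2-fold. Of the 12 nucleic acid sensors and their adaptors, 5 were not well above background on any array, among them *CGAS* with signals of 4.26, 4.93 and 4.96. *STING1*, the adaptor for cytosolic DNA, was the 1 of the 7 compared that was past 2-fold. Its ratios to 0 μM were 2.96-fold at 10 μM and 2.28-fold at 100 μM, the second 1.92-fold without scaling. The medians of that list were 0.18 and 0.22. For both lists the share of all genes compared that was more than 2-fold higher was 3.38% at 10 μM and 6.84% at 100 μM.

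*ISG15* needs its own enzymes to be attached to proteins. *UBA7*, the activating enzyme, had signals of 128, 186 and 333, a 1.39-fold difference at 10 μM and a log2 ratio of 1.63 at 100 μM. *HERC6*, of the ligase family, had 154, 75.4 and 152 and was 2.13-fold lower at the low dose only, on 1 of its 2 probes, since the other was not above background. *UBE2L6*, the conjugating enzyme, and *USP18*, which removes the modifier, were within 2-fold at both doses. *HERC5*, the main human ligase, was not above background on any array. The medians of the 4 genes compared were -0.17 and 0.28.

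Of 45 other antiviral effectors, 36 were above background on at least 1 array. *RSAD2*, *IFI44* and *IFI44L*, which interferon strongly induces in many cells, were among the 9 that were not. At the low dose *TRIM22*, a ubiquitin ligase that p53 also induces, was at least 5.98-fold higher. The other 33 compared were within 2-fold, where 3.38% of all genes compared were higher and 1.61% lower. At the high dose 7 of 36 were higher and 1 was lower, beside 6.84% and 3.71% of all genes compared. *HELZ2* (2.33-fold on its brightest probe, 1.55-fold on another), the exonuclease gene *ISG20* (2.24-fold) and *PARP9* (2.11-fold) were the highest of those measured. Without scaling these were 1.96-fold (brightest probe), 1.88-fold and 1.77-fold, all within 2-fold. *TRIM22* (at least 5.34-fold), *GBP3* (at least 3.02-fold) and *RTP4* (at least 2.91-fold) had bounds. *SP100*, a nuclear body protein, was 2.14-fold lower on its brightest probe and 1.17-fold higher on both of the others. The medians were 0.13 and 0.36.

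**Figure D5:**
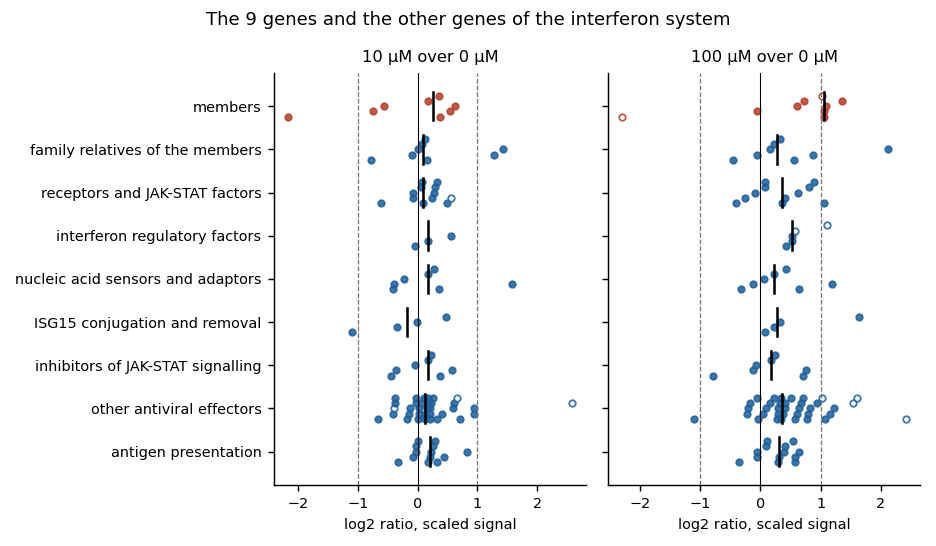
Scaled log2 ratio to 0 μM (x axis) of the 9 genes (red) and of the other genes of the interferon system by list (blue), at 10 μM (left) and 100 μM (right). Filled points were measured on both arrays, open points are bounds, black bars are medians of the measured genes, and dashed lines mark 2-fold. At 100 μM the bar of the 9 genes lies at 1.05 and those of the other lists drawn lie between 0.17 and 0.53.

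Leukocytes carry many of these genes, and leukocyte markers were checked beside them, although the sample is a cell line. Of the 6 on the array, 4 were well above background, with a summed signal of 1641, 2075 and 2872 at 0, 10 and 100 μM. Most of that difference was *CD14*, which liver cells also express, with 521, 1180 and 1850. *PTPRC*, the marker common to leukocytes, had 257, 131 and 288 on 1 of its 5 probes and was not above background on the other 4, and *ITGAM* and *CLEC4C* were not above background. Their part in the result was not tested. In such bulk RNA fewer cells with a transcript and less of it per cell cannot be told apart, and with all 3 arrays on 1 slide the position of an array and its dose cannot be told apart either.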

How the data were processed

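RNA of HepG2 cells, taken 30 h after 0, 10 or 100 μM etoposide, was hybridized to 1-color Agilent arrays, 1 per condition. The authors deposited the scanner output of Agilent Feature Extraction (version 10.7.3.1, per the labels), with the background-subtracted intensity of each spot. The deposited series table held the same intensity values for all 44495 spots of each array (tolerance 0.0001).

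Log2 intensity was averaged over the spots of a probe without outlier spots, and the 75th percentile over probes was subtracted. A gene was its brightest probe. A signal not well above background was raised, if lower, to the lowest signal that was (19.51, 22.65 and 21.65), which gives bounds. Some signals above these values were also not well above background, so "at least" refers to this rule and is not a strict limit. Genes past 2-fold were counted among those well above background on at least 1 of the 2 arrays. Spot SDs came from the 50 nearest of 999 probes spotted 10 times. The number of arrays limits the precision, and no test was possible.

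The members and the lists were chosen with earlier results of these data known. Named are all members, list genes past 2-fold (where more than 6 are, the 3 highest and 3 lowest measured), *STAT2* and *IRF9*, nearest patterns, and *CDKN1A*, *MDM2* and *PCNA*. *IFIT5*, *IFNLR1*, *MX2*, *OAS2*, *IFI27L1*, *IFNB1*, *IFNL2*, *CGAS*, *UBE2L6*, *USP18*, *HERC5*, *RSAD2*, *IFI44*, *IFI44L*, *TTR*, *GBP3*, *RTP4*, *TAP1* and the chemokine genes were chosen after their values were seen. Probe positions are on hg18 as deposited, and exons were not assigned. Symbols of 9 of 9 members matched RefSeq. Some genes of the lists are counted but not reported singly. The steps were tested on simulated data. Python 3.11.15, pandas 2.3.3, numpy 2.4.6, R 4.3.3 and limma 3.58.1 (normexp) were used.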

Additional observations from a re-analysis of the deposited data

How the results depend on the processing

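With 1 array per condition no replicate could be left out. No paired analysis was possible because 1 sample stood for each dose. Under the 13 other settings that give a log2 ratio, 260 of 331 values of single members stayed within 1 spot SD of the value given, 71 moved further and none changed sign with a call. Several of these settings could hardly move a value. The series table held the same intensities, no spot of a member was an outlier, and only *IFIT2* had 2 probes. The 260 is therefore not a measure of stability. The 5 members higher at 100 than at 0 μM became 1 without scaling, 1 with median scaling, 1 with spike-in scaling, 0 with normexp and 0 at a 3-fold threshold, and their median of 1.05 became 0.80, 0.76, 0.88 and 0.87 under the first 4. With only genes well above background on all arrays, *ETV7* and *IFIT2* leave the set. Then 4 members were higher at 100 than at 0 μM, 0 were lower at either dose, and the low-dose median was 0.36. With normexp the low-dose median was 0.12. At 1.5-fold, 1 member was higher and 2 were lower at 10 than at 0 μM. At 10 over 100 μM the 2 lower members became 0 without scaling, with median scaling, spike-in scaling, normexp or a 3-fold threshold, and 5 at 1.5-fold, and 1 became higher without a filter on dim probes. The median of -0.69 became -0.37 without scaling, -0.42 with median scaling, -0.46 with spike-in scaling, -0.43 with normexp and -0.52 with quantile normalization.

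In the other interferon lists, 4 genes higher at 10 μM became 11 at 1.5-fold and 1 at 3-fold, and the 1 lower became 4 and 0, and 0 with the mean of a gene's probes or normexp. The 14 higher at 100 μM became 30 at 1.5-fold, 4 at 3-fold, 5 without scaling, 5 with median scaling, 8 with spike-in scaling, 9 with quantile normalization, 9 with a floor at the fifth percentile, 6 with normexp and 7 with genes above background on all arrays. The 1 lower became 2 at 1.5-fold, without scaling or with median scaling, and 0 at 3-fold or with the mean of probes. The median of 0.32 became 0.07 without scaling, 0.03 with median scaling and 0.15 with spike-in scaling. Over all genes at 100 over 0 μM the calls were 589 higher and 1185 lower with median scaling, 753 and 919 with spike-in scaling, 783 and 789 with quantile normalization, and 385 and 425 with normexp. For normexp and the mean of probes the cause was not tested. *IFIT2*, *IFIT3*, *OAS1* and *ETV7* had signals near background on at least 1 array, where the spot SD of a log2 ratio was 0.17 to 0.61.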

Other observations

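The antigen presentation genes, which interferon also raises, were measured in full, 13 of 13 well above background at every comparison. None was past 2-fold at either dose. Their log2 ratios ran from -0.32 to 0.82 at 10 over 0 μM, with a median of 0.21, and from -0.36 to 0.64 at 100 over 0 μM, with a median of 0.31, beside -0.03 and 0.09 for all measured genes. *TAP1*, the peptide transporter subunit, was the highest at both, 1.77-fold and 1.56-fold above 0 μM. The 7 inhibitors of JAK-STAT signalling on the list, among them *SOCS1* and *SOCS3*, were all above background and none was past 2-fold, with medians of 0.18 and 0.17.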
